A study of Mus musculus with 6 samples.

Results

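The 10 genes described here encode the 5 NF-kappaB subunits (Nfkb1, Nfkb2, Rel, Rela and Relb) and 5 proteins that restrain or modulate them (Nfkbia, Nfkbid, Nfkbie, Nfkbiz and Tnfaip3). They were taken by symbol from a table of 24421 genes, and were chosen with earlier results of these data known. Of the genes described, 10 of 10 had enough counts to be tested. NF-kappaB subunits act as dimers that bind kappaB sites in DNA. In resting cells, IkappaB proteins hold the dimers in the cytoplasm until IkappaB kinase, activated downstream of antigen receptors and tumour necrosis factor (TNF) receptors, marks the IkappaB for destruction. The dimers then enter the nucleus and switch on, among others, the genes for their own inhibitors, a negative feedback. In regulatory T cells (Tregs), the suppressive CD4 T cells that express the transcription factor Foxp3, c-Rel and p65 are known to be needed for development and for the activated state.

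RNA was sequenced from Tregs of mouse spleen and lymph nodes in 6 libraries: replicates 1, 3 and 5 of the controls (Srebp2WT) and replicates 6, 7 and 8 of the knockout (Srebp2cKO). The Srebp2WT genotype was given as Srebp2WT/WT-Foxp3YFPCRE+/+ and the Srebp2cKO genotype as Srebp2FL/FL-Foxp3YFPCRE+/-. Both genotypes therefore carried Cre, the recombinase that cuts floxed alleles, with yellow fluorescent protein under Foxp3, so that it acts in Foxp3-expressing cells, and its allele state differed along with the floxed alleles of Srebf2, the gene of the sterol regulator SREBP2, so these cannot be told apart. No label gives the age of the mice. Nor is it stated that different libraries represent different mice, so the p-values below cover the spread among these samples alone, and that spread may be technical.

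Libraries held 13918321 to 17249898 counts, and 14158 to 14689 genes had at least 1 count. The level of Srebf2 was 185 ± 10.9 CPM (counts scaled to a common library size; SD, n = 3) in Srebp2WT and 12.4 ± 1.56 in Srebp2cKO, 6.66% of the Srebp2WT level (edgeR adjusted p = 1.49e-08), and the labels held in all 6 libraries. Foxp3 was at 454 ± 11.5 and 435 ± 27.0 CPM (edgeR adjusted p = 0.611), and 6 Treg markers summed to 4115 to 4335 CPM in Srebp2WT and 4037 to 4192 in Srebp2cKO. That sum hides differences between its markers. Il2ra rose from 691 ± 11.3 to 920 ± 22.1 CPM (edgeR adjusted p = 0.0101). Ctla4 (322 to 413 CPM) was lowest in a Srebp2WT library and highest in a Srebp2cKO library. Ikzf2 (1248 to 1665 CPM) was highest in a Srebp2WT library and lowest in a Srebp2cKO library. Of 11932 genes tested, 2.37% passed a false discovery rate of 0.05 as higher and 4.24% as lower in the knockout (edgeR), with a median log2 fold change of -0.00 over all of them. Libraries also differed in how counts followed transcript GC content: the slope, in log2 CPM per 10 GC points, was 0.15, 0.18 and 0.02 in Srebp2WT and 0.01, -0.25 and -0.12 in Srebp2cKO. Values after removal of that trend are given for each member. In bulk RNA, fewer cells of a type and less RNA per cell cannot be told apart.

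Promoter stretches of 6 members are shown because they hold the kappaB motif, through which NF-kappaB is known to induce its own subunit and inhibitor genes. RefSeq promoter windows on GRCm38.p6, from 250 bases before a transcription start to 50 after it, were matched for 7 of the 10 genes, with 12 windows in all. Nfkb1, Relb and Nfkbiz had no entry. The kappaB consensus of Rel-family dimers, searched on both strands by its usual degenerate form, was found in a window of 6 of the 7 genes (8 of the 12 windows) and not in Rela, against 5.14% of the 27025 genes and 4.51% of the 32851 windows in the RefSeq table. Overlapping hits on opposite strands, as in the first Nfkb2 stretch and in Rel, are counted once, and 2 of the Nfkb2 windows overlap each other. The stretches below lie on the strand of the gene, in the promoter of a start site, with kappaB matches in capitals.
Nfkb2 (chr19:46304683-46304736, plus strand): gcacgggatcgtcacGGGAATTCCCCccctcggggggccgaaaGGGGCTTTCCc
Rel (chr11:23771036-23771076, minus strand): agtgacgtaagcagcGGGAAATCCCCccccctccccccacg
Nfkbia (chr12:55492652-55492691, minus strand): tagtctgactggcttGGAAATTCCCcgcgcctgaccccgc
Nfkbid (chr7:30422165-30422249, plus strand): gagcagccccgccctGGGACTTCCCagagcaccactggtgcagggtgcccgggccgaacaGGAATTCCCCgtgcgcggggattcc
Nfkbie (chr17:45555579-45555618, plus strand): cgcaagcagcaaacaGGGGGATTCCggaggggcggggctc
Tnfaip3 (chr10:19015411-19015550, minus strand): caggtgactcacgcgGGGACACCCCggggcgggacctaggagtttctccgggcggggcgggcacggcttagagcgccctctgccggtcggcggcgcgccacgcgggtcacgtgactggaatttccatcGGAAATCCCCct
Nfkb2, Nfkbid and Tnfaip3 each held 2 separate matches in the stretch shown, and the other genes held 1. The sterol regulatory element TCACNCCAC, a form bound by SREBP proteins, was searched on both strands in the same windows. It was found in 0 of the 7 genes and in 1.44% of all genes (1.24% of windows), which says only that these letters are not in these windows. A match is a description of the sequence and not evidence of binding.

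Of the members, 0 of 10 passed the false discovery rate of 0.05 in edgeR, in either direction. Of all tested genes, 2.37% passed as higher and 4.24% as lower, so 0 of 10 lies near those shares. At an unadjusted p under 0.05, 1 member was higher (Nfkbiz) and 5 were lower (Nfkb1, Nfkb2, Rela, Relb and Nfkbie), against 14.8% of all tested genes higher and 14.3% lower. At a false discovery rate of 0.1, Nfkbiz was higher and Nfkb2, Relb and Nfkbie were lower, 4 of 10 members, against 7.22% and 8.65% of all tested genes. The 3 Srebp2cKO libraries lay above all 3 Srebp2WT libraries for Rel and Nfkbiz and below them for Nfkb1, Nfkb2 and Nfkbie, against 16.0% and 15.5% of all tested genes. The median log2 fold change was -0.17 over the 10 members, -0.22 over the subunits and 0.04 over the 5 inhibitors, beside -0.00 over all tested genes. With the GC trend removed these medians were 0.01, -0.03 and 0.12. DESeq2 called 3 members (Nfkbiz higher, Nfkb2 and Relb lower), against 4.98% of genes higher and 6.05% lower, and limma-voom called 0, against 2.32% and 4.23%.

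**Figure D1:**
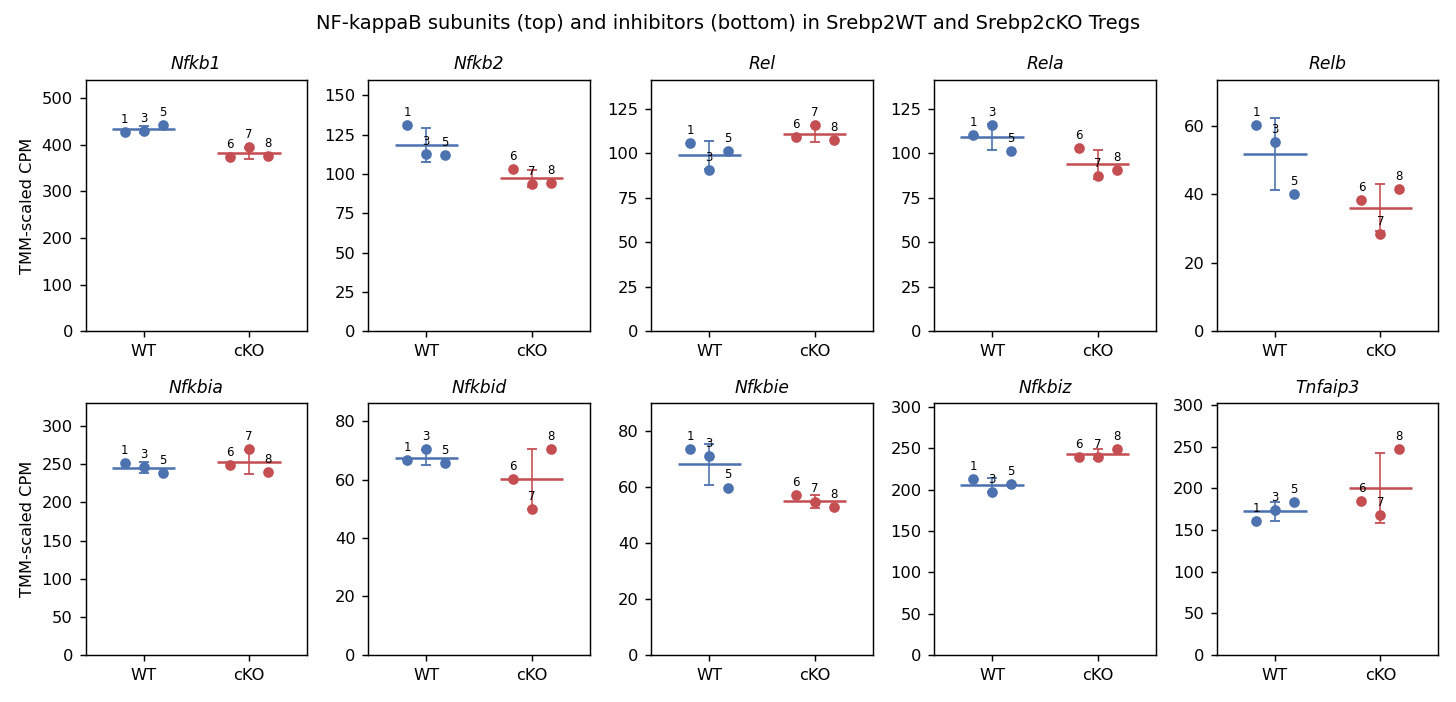
TMM-scaled CPM (y axis, linear from 0) of each of the 10 members in the Srebp2WT and Srebp2cKO libraries. Points are libraries marked with their replicate number, lines are means and bars are SD (n = 3). The genotypes do not overlap for Nfkb1, Nfkb2, Nfkbie, Rel and Nfkbiz, and replicate 8 of Srebp2cKO stands above the other 5 libraries for Tnfaip3.

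Nfkb1 encodes p105, the precursor of p50, which is both a subunit and, uncut, an inhibitor (chromosome 3, 135584655 to 135691547, minus strand, GRCm38, as for all gene positions here). It was at 428, 430 and 442 CPM in Srebp2WT replicates 1, 3 and 5 and at 374, 395 and 377 CPM in Srebp2cKO replicates 6, 7 and 8. Each Srebp2cKO library lay below each Srebp2WT library. It had a log2 fold change of -0.18 (95% interval -0.33 to -0.03, SE 0.07, edgeR adjusted p = 0.117), a change of -11.9% with an interval of -20.7% to -2.1%. Nfkb1 has a transcript GC content of 44.9%, low among the members, and removal of the GC trend moved it away from 0, to a log2 fold change of -0.30 (interval -0.42 to -0.17, edgeR adjusted p = 0.0141). On that scale the libraries were at 449, 457 and 445 CPM in Srebp2WT and 373, 368 and 361 in Srebp2cKO, a gap wider than the spread within either genotype. With the GC trend removed, 1 member was called lower (Nfkb1) and 1 higher (Nfkbiz), against 3.80% and 1.94% of all tested genes. The Nfkb1 call held in 4 of the 6 fits that also left out 1 library, where its adjusted p ran from 0.0253 to 0.0787 in edgeR.

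Nfkb2 encodes p100, the precursor of p52 and the substrate of the non-canonical pathway (chromosome 19, 46304320 to 46312385, plus strand). It was at 131, 113 and 112 CPM in Srebp2WT and at 103, 93.9 and 94.5 CPM in Srebp2cKO, with no overlap between the genotypes. Its log2 fold change of -0.29 had a 95% interval of -0.48 to -0.10 (SE 0.09, edgeR adjusted p = 0.0689). Nfkb2 is GC-rich at 59.4%, and with the GC trend removed its log2 fold change was -0.03 (interval -0.20 to 0.14), with overlapping libraries. Its exons share 299 bases with Psd and 531 bases with a long non-coding RNA gene, both on the opposite strand, and without a stated strand setting for the counting, reads there cannot be told apart. Without Srebp2cKO replicate 6, Nfkb2 passed the threshold (edgeR adjusted p = 0.0471).

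Relb encodes the partner of p52 in the non-canonical pathway (chromosome 7, 19606217 to 19629438, minus strand). It was at 60.2, 55.1 and 40.0 CPM in Srebp2WT and at 38.3, 28.3 and 41.4 CPM in Srebp2cKO. Replicate 8 of Srebp2cKO overlapped replicate 5 of Srebp2WT, and the other 2 Srebp2cKO libraries lay below every Srebp2WT library. The mean went from 51.7 ± 10.5 to 36.0 ± 6.84 CPM (SD, n = 3), a log2 fold change of -0.52 with a 95% interval of -0.89 to -0.15 (SE 0.17, edgeR adjusted p = 0.0817). This was the widest difference among the members, and the spread within each genotype was also wide. With the GC trend removed the value was -0.35 (interval -0.66 to -0.05, edgeR adjusted p = 0.161). Without Srebp2WT replicate 5 and with the trend left in, the gene passed the threshold (edgeR adjusted p = 0.0249).

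Rela encodes p65, the main activating subunit of the canonical pathway (chromosome 19, 5637483 to 5648130, plus strand). It was at 110, 116 and 101 CPM in Srebp2WT and at 103, 87.2 and 90.8 CPM in Srebp2cKO. Replicate 6 of Srebp2cKO lay within the Srebp2WT range, and the other 2 lay below it. This gave a log2 fold change of -0.22, with a 95% interval of -0.42 to -0.03 (SE 0.09, edgeR adjusted p = 0.128). Removal of the GC trend turned it to 0.03 (interval -0.09 to 0.16), and the 6 libraries then lay between 98.6 and 104 CPM.

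Rel encodes c-Rel, the activating subunit most closely tied to antigen receptor signals in lymphocytes (chromosome 11, 23736847 to 23770970, minus strand). Rel had the opposite direction to the other subunits, at 105, 90.4 and 101 CPM in Srebp2WT and 109, 116 and 108 CPM in Srebp2cKO. The genotypes did not overlap, but the gap between replicate 1 of Srebp2WT and replicate 8 of Srebp2cKO was narrower than the spread within Srebp2WT. The fitted difference on the log2 scale was 0.16, with a 95% interval of -0.02 to 0.34 (SE 0.08, edgeR adjusted p = 0.209). Rel has the lowest GC content of the members, 42.5%, and with the GC trend removed its value was -0.01 (interval -0.16 to 0.15) with overlapping libraries.

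Among the inhibitors, Nfkbia encodes IkappaB-alpha, which retains p65 and c-Rel dimers in the cytoplasm and is rapidly resynthesised after activation (chromosome 12, 55489410 to 55492647, minus strand). It was at 252, 247 and 238 CPM in Srebp2WT and at 249, 270 and 240 CPM in Srebp2cKO. The genotypes overlapped, with only replicate 7 of Srebp2cKO above all Srebp2WT libraries. On the log2 scale Nfkbia differed by 0.04, with a 95% interval of -0.12 to 0.21 (SE 0.07, edgeR adjusted p = 0.718). The interval of the change, -7.9% to 15.5%, leaves room for a moderate difference in either direction. Removal of the GC trend gave 0.12 (interval -0.03 to 0.28). On that scale the genotypes no longer overlapped, by a narrow gap. Srebp2WT replicate 1 was at 244.6 CPM and Srebp2cKO replicate 8 at 245.4 CPM.

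Nfkbie encodes IkappaB-epsilon, a cytoplasmic inhibitor prominent in lymphocytes (chromosome 17, 45555703 to 45563169, plus strand). It was at 73.7, 71.0 and 59.8 CPM in Srebp2WT and at 57.3, 54.8 and 52.7 CPM in Srebp2cKO. All 3 Srebp2cKO libraries lay below the Srebp2WT libraries, of which replicate 5 was the nearest. On the log2 scale Nfkbie differed by -0.31, with a 95% interval of -0.52 to -0.10 (SE 0.09, edgeR adjusted p = 0.0710), and without Srebp2WT replicate 5 the gene passed the threshold (edgeR adjusted p = 0.0278). After removal of the GC trend it was -0.17 (edgeR adjusted p = 0.239).

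Nfkbid and Nfkbiz encode nuclear IkappaB proteins, IkappaBNS and IkappaB-zeta, which bind p50 at promoters and can raise or lower transcription there. IkappaBNS, together with c-Rel, is known to promote Foxp3 induction. Nfkbid (chromosome 7, 30421732 to 30428746, plus strand) was at 66.6, 70.3 and 65.6 CPM in Srebp2WT and at 60.1, 50.1 and 70.5 CPM in Srebp2cKO. Its Srebp2cKO libraries spanned the Srebp2WT range on both sides, and the fitted log2 fold change was -0.16, with a 95% interval of -0.42 to 0.09 (SE 0.12, edgeR adjusted p = 0.369). Removal of the GC trend turned Nfkbid to 0.02 (interval -0.21 to 0.24). Nfkbiz (chromosome 16, 55811375 to 55838899, minus strand) was at 213, 197 and 206 CPM in Srebp2WT and at 239.8, 239.8 and 249 CPM in Srebp2cKO. The genotypes were well apart, with little spread in either. For Nfkbiz the fitted log2 fold change was 0.24, with a 95% interval of 0.09 to 0.40 (SE 0.07, edgeR adjusted p = 0.0614), a change of 18.3%. Its GC content, 50.1%, is intermediate, and removal of the GC trend left the value at 0.25 and took the edgeR adjusted p to 0.0360. None of the 6 fits that also left out 1 library kept that call (edgeR adjusted p of 0.0639 to 0.152).

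Tnfaip3 encodes A20, a ubiquitin-editing enzyme that shuts down signalling upstream of IkappaB kinase (chromosome 10, 19000910 to 19015657, minus strand). It was at 161, 174 and 183 CPM in Srebp2WT and at 184, 168 and 248 CPM in Srebp2cKO. Replicate 8 of Srebp2cKO stood alone at the top, and the other 2 lay in or next to the Srebp2WT range. A log2 fold change of 0.21 was fitted, with a 95% interval of -0.07 to 0.50 (SE 0.13, edgeR adjusted p = 0.292) and 0.03 without that library. Removal of the GC trend gave 0.15 (interval -0.13 to 0.43). The same library was the highest for several immediate early genes, which cells switch on within minutes of a stimulus. Fos was at 8.40, 10.5 and 26.9 CPM in Srebp2WT and 12.3, 18.8 and 118 CPM in Srebp2cKO, and Jun was at 23.3, 35.2 and 73.7 CPM in Srebp2WT and 34.4, 55.3 and 180 CPM in Srebp2cKO. Both genes were singled out after their values were seen, and their part in the Tnfaip3 value was not tested.

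**Figure D2:**
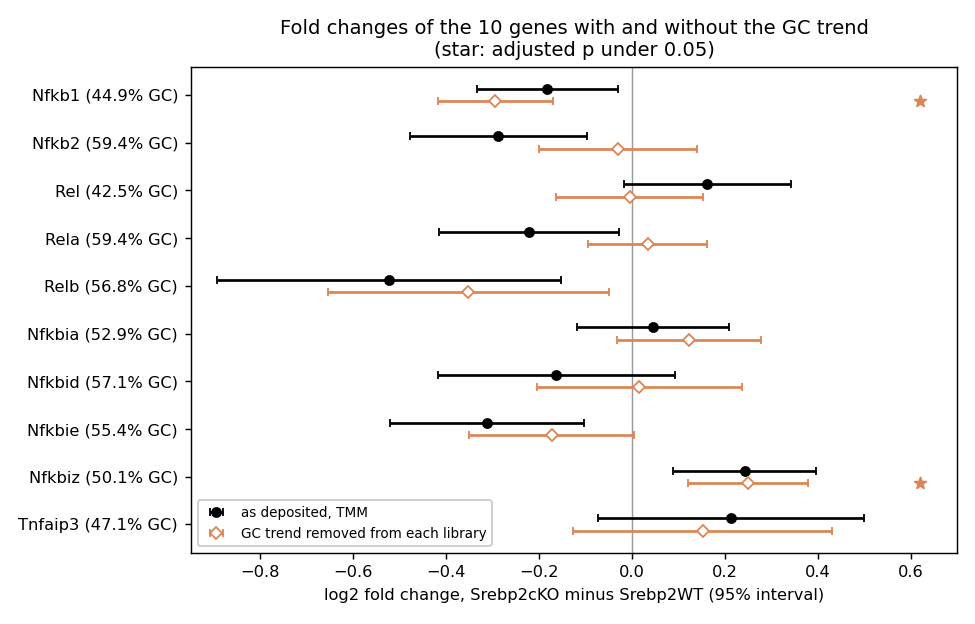
Log2 fold change of each member (x axis, Srebp2cKO minus Srebp2WT) with its 95% interval, in the edgeR fit and in the fit with the GC trend removed from each library. Removal of the trend brings Nfkb2, Rela, Rel and Nfkbid to within 0.04 of 0 and moves Nfkb1 from -0.18 to -0.30, while Nfkbiz stays at 0.24 to 0.25.

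Fold changes of the members tended to be lower where their GC content was higher. Across the 10 genes, Pearson's r between transcript GC content and log2 fold change was -0.66, as a description over genes that are not independent replicates. With the trend removed it was -0.09. The removal takes out a trend on the same GC contents, so a move toward 0 is built in and is no separate result. Removal of the trend took Nfkb2, Rela and Nfkbid (57.1% to 59.4% GC) and Rel (42.5%) close to 0, whereas Relb (56.8%) kept -0.35 of -0.52 and Nfkbie (55.4%) -0.17 of -0.31. Relb and Nfkb1 had the lowest values with the trend removed and Nfkbiz the highest. The slopes of the libraries did not overlap between genotypes. Removal can therefore also take out a genotype difference that follows GC content, and the trend and such a difference cannot be told apart. Where the trend came from was not tested.

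Markers of other cells also differed between the genotypes and are given beside the lower values of Nfkb2, Relb and Nfkbie, whose part in them was not tested. The 7 B cell markers summed to 56.4 to 79.5 CPM in Srebp2WT and 25.8 to 34.5 in Srebp2cKO, mostly from Cd74. Cd79b had 98 to 208 counts a library, Cd22 47 to 249 and Cd79a 8 to 17, while Ms4a1 and Pax5 had at most 2. Cd74, Cd79b and Cd22 were highest in a Srebp2WT library and lowest in a Srebp2cKO library. For Cd79a the extremes lay the other way, with its lowest value (0.51 CPM) in a Srebp2WT library and its highest (1.01 CPM) in a Srebp2cKO library. Extremes of so few counts are single libraries and give no group difference. The 8 myeloid markers summed to 50.9 to 85.0 and 33.8 to 39.5 CPM, mostly from Cybb, with S100a8 and S100a9 at 0 counts in all 6 libraries. For Itgam (0.65 to 2.51 CPM, 10 to 38 counts) and Fcgr3 (0.13 to 1.02 CPM, 2 to 16 counts) the extremes lay the other way. Each was lowest in a Srebp2WT library and highest in a Srebp2cKO library. The 5 dendritic cell markers summed to 2.52 to 4.12 and 1.15 to 3.38 CPM, with 2 of them (Itgax and Flt3) at 0. The 2 CD8 T cell markers summed to 7.01 to 7.59 CPM in Srebp2WT and 8.70 to 10.3 in Srebp2cKO, and the 4 natural killer cell markers to 4.52 to 5.72 and 3.88 to 7.55 CPM, with Ncr1 at 0. The 5 stromal markers summed to 168 to 180 and 216 to 230 CPM, nearly all from Pecam1, which T cells also express, while Cdh5 and Col3a1 had at most 1 count.

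Levels between genes were compared per kilobase of the longest transcript. In Srebp2WT Tregs, Nfkbia was the most abundant member at 156 ± 4.49 CPM per kb (SD, n = 3), above Nfkb1 at 104 ± 1.84 and Nfkbiz at 49.9 ± 2.03. Rela was next at 40.2 ± 2.66 CPM per kb. It was followed by Nfkbid at 33.1 ± 1.23, Nfkb2 at 30.8 ± 2.82 and Tnfaip3 at 27.9 ± 1.84, 3 neighbours whose library ranges overlapped in turn. Nfkbie at 22.7 ± 2.44 CPM per kb stood apart from those above and below it, and Relb at 15.8 ± 3.20 and Rel at 13.3 ± 1.04 overlapped at the bottom. So p105/p50 transcripts exceeded those of each activating subunit, and Rela exceeded Rel. In Srebp2cKO the first 4 places were the same (Nfkbia 160, Nfkb1 92.0, Nfkbiz 59.1 and Rela 34.5 CPM per kb), and Rela, Tnfaip3 (32.3) and Nfkbid (29.6) overlapped in turn. At the bottom, Rel at 14.8 ± 0.58 and Relb at 11.0 ± 2.09 CPM per kb changed places, and their libraries no longer overlapped. The place of Nfkb1 rests on the length used: per kilobase of all its annotated exons (12061 bases, against 4149 in the longest transcript) it was at 35.9 CPM per kb in Srebp2WT, below Nfkbiz at 40.9 and overlapping Rela.

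Ratios within a library cancel the scaling between libraries and put the inhibitors on the scale of the canonical subunits. They were taken from counts per kilobase, against the sum of Rel, Rela and Nfkb1, and compared by exact two-sided permutation tests, whose smallest p for 3 against 3 libraries is 0.1. Of 8 ratios computed, 4 did not overlap between genotypes, each at that smallest p (0.2 after Benjamini-Hochberg adjustment), so none could pass a threshold of 0.05. The Nfkbia, Nfkbiz and Tnfaip3 ratios share a denominator that is mostly Nfkb1 (104 CPM per kb in Srebp2WT, beside 40.2 for Rela and 13.3 for Rel). Nfkb1 was lower in all 3 Srebp2cKO libraries, so these ratios are not separate results. The level of Nfkbia itself overlapped between genotypes with the GC trend left in, and was narrowly apart with it removed. Nfkbia stood at 1.01, 0.987 and 0.957 of the subunit sum in Srebp2WT and 1.11, 1.20 and 1.10 in Srebp2cKO, a log2 difference of 0.20. The Nfkbiz ratio to the same sum was 0.328, 0.302 and 0.319 in Srebp2WT and 0.409, 0.408 and 0.437 in Srebp2cKO, a log2 difference of 0.40. Both ratios were higher in all 3 Srebp2cKO libraries, and remained so with the GC trend removed (log2 differences of 0.31 and 0.44). The Tnfaip3 ratio was 0.164, 0.178 and 0.188 in Srebp2WT and 0.209, 0.190 and 0.288 in Srebp2cKO (log2 difference 0.35), with replicate 7 of Srebp2cKO close to the Srebp2WT range. That difference was 0.18 without replicate 8 of Srebp2cKO, and 0.30 to 0.48 without any other library. With the GC trend removed, the libraries overlapped for the Tnfaip3 ratio. The Nfkbie and Nfkbid ratios overlapped between genotypes, with log2 differences of -0.15 (exact permutation p = 0.4) and -0.02 (exact permutation p = 1).

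The ratio of Rel to Rela, the activating subunits, was 0.348, 0.284 and 0.363 in Srebp2WT and 0.386, 0.483 and 0.431 in Srebp2cKO, 1.31-fold higher by the means of log ratios. All 3 Srebp2cKO libraries were above the Srebp2WT libraries, but Rel and Rela lie at opposite ends of the GC range and the log2 difference of 0.39 became -0.04 with the GC trend removed. Nfkb2 to Nfkb1, the precursors of p52 and p50, had a log2 difference of -0.10 (exact permutation p = 0.4), and of 0.27 without overlap once the trend was removed. Relb to Rela had a log2 difference of -0.30 (exact permutation p = 0.2), with overlapping libraries on either scale.

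**Figure D3:**
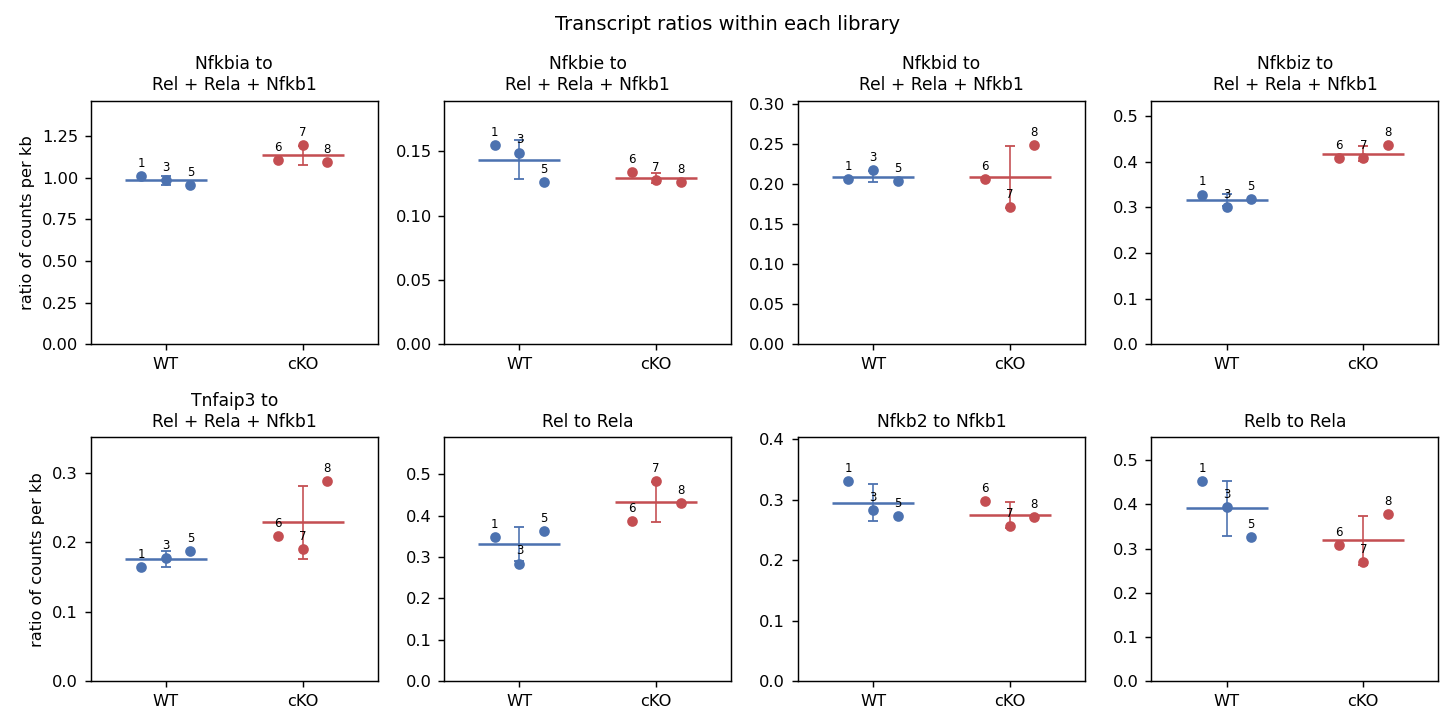
The 8 within-library ratios of counts per kilobase (y axis, linear) in Srebp2WT and Srebp2cKO libraries, with replicate numbers, means (lines) and SD (bars, n = 3). Nfkbia, Nfkbiz and Tnfaip3 to the sum of Rel, Rela and Nfkb1, and Rel to Rela, do not overlap between genotypes, and the other 4 do.

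Among the members themselves, levels over the 6 libraries varied together or in opposite directions, given as a description of libraries that share the genotype difference and the GC trend. Of 45 pairs, Pearson's r of log2 CPM was positive for 21 and negative for 24, with a median of -0.16. Nfkb2 and Nfkbie were the most alike (r = 0.91), followed by Rela and Nfkbie (0.89), and Rela and Relb (0.85). Rel and Nfkbiz were alike at 0.84. The most opposed pair was Nfkb1 and Nfkbiz (-0.92), then Nfkbia and Nfkbid (-0.86), and Rel and Rela were opposed at -0.79.

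Genes upstream and downstream of the members were counted in lists drawn up by known role, some of which share genes. Of 24 kinases and adaptors between receptors and NF-kappaB, 0 were called higher and 0 lower (edgeR), with 12 at an unadjusted p under 0.05 in either direction (29.1% of all tested genes), 1 called by DESeq2, 0 by limma-voom and a median log2 fold change of 0.02. The smallest p-values were those of Tab3, a TAK1-binding adaptor (0.28, edgeR adjusted p = 0.0689), Traf2, an adaptor of TNF receptors (-0.28, 0.0810), and Rbck1, a subunit of the linear ubiquitin ligase (-0.43, 0.0880). Among the kinases and adaptors with the GC trend removed, only Map3k14, the kinase NIK of the non-canonical pathway, was called (0.25, edgeR adjusted p = 0.0448), from 0.01 without removal. None of the 6 fits that also left out 1 library called it (edgeR adjusted p of 0.0681 to 0.163). Tab3, Traf2 and Rbck1 were at 0.09, -0.25 and -0.17 on that scale. Of 17 ubiquitin regulators and other inhibitors, 0 were called in either direction by edgeR and 0 by limma-voom, 7 had an unadjusted p under 0.05 (again beside 29.1% of all tested genes), 3 were called by DESeq2, and the median was -0.17 (-0.01 with the GC trend removed). N4bp1, an inhibitor of signalling to NF-kappaB (-0.28, edgeR adjusted p = 0.0646), Pdlim2, which promotes p65 breakdown (-0.30, 0.0784), and Bcl3, a nuclear IkappaB (-0.54, 0.0791), had the smallest p-values there. They were at -0.25, -0.14 and -0.23 with the GC trend removed.

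In the edgeR fit, calls in these lists fell among receptors and among genes that NF-kappaB is known to induce, and differences between lists were not tested. Of 15 receptors tested (Ltbr and Tnfrsf11a were not), 2 rose and 4 fell in Srebp2cKO, against 2.37% and 4.24% of all tested genes, and the list's median log2 fold change was -0.39 (-0.25 with the GC trend removed). Tnfrsf1b, the TNF receptor TNFR2 that sustains Tregs, fell from 375 ± 58.9 to 244 ± 34.1 CPM (SD, n = 3; log2 fold change -0.62, edgeR adjusted p = 0.0232). Tnfrsf9, the costimulator 4-1BB (-0.45, 0.0312), Tnfrsf18, the receptor GITR (-0.39, 0.0438), and Il1rl1, the interleukin-33 receptor ST2 (-1.56, 0.0302), fell too. Cd28, the costimulatory receptor of T cells, rose from 403 ± 42.9 to 542 ± 29.7 CPM (0.43, edgeR adjusted p = 0.0257). Tnfrsf13c, the BAFF receptor, lay between 0.54 and 0.64 CPM in Srebp2WT and rose to between 3.73 and 5.35 CPM in Srebp2cKO (log2 fold change 2.92, edgeR adjusted p = 4.40e-04). It lies on the minus strand with its nearest end 16363 bases beyond the end of Srebf2 on chromosome 15 (82221743 to 82224369, against 82147181 to 82205379), and a part of the floxed locus in this value was not tested. With the GC trend removed, Cd28 (0.23, edgeR adjusted p = 0.0848) and Tnfrsf18 (-0.25, 0.0758) were no longer called, while Il18r1, the interleukin-18 receptor, was called lower (-0.62, edgeR adjusted p = 0.0233). Without removal Il18r1 was just outside the threshold (-0.49, edgeR adjusted p = 0.0504), and it passed under each of 3 other scalings (0.0452 to 0.0495). Of the 6 fits that left out 1 library, 1 called Il18r1 with the trend left in (edgeR adjusted p of 0.00982 to 0.184). With the trend removed, 3 of the 6 did (0.00394 to 0.0761). Of the 6 receptors called, only Tnfrsf13c was called in all 6 fits that left out 1 library. Tnfrsf13c was near the floor in Srebp2WT and had enough counts to be tested only through the Srebp2cKO libraries, where it is high. Its calls therefore do not compare with those of the other receptors. Tnfrsf1b was lost without Srebp2WT replicates 1 or 3 or Srebp2cKO replicate 7 (edgeR adjusted p of 0.098, 0.087 and 0.058), Tnfrsf9 without Srebp2WT replicates 1 or 3 or Srebp2cKO replicate 8 (0.139, 0.10 and 0.103), and Il1rl1 without Srebp2WT replicates 1 or 5 or Srebp2cKO replicate 7 (0.122, 0.051 and 0.062). Cd28 and Tnfrsf18 were lost without Srebp2WT replicates 1 or 3 or Srebp2cKO replicates 7 or 8 (edgeR adjusted p of 0.061 to 0.117 and 0.095 to 0.179).

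Of 25 target genes tested (Ier3 was not), 1 rose and 5 fell, against 2.37% and 4.24% of all tested genes, with a median log2 fold change of -0.19, or -0.09 with the GC trend removed. Cd83, a surface protein of activated lymphocytes, fell from 116 ± 13.9 to 64.0 ± 3.07 CPM (SD, n = 3; log2 fold change -0.86, edgeR adjusted p = 9.03e-04). Ccl5, a T cell chemokine, fell from 6.31 ± 0.25 to 1.76 ± 0.25 CPM (-1.84, edgeR adjusted p = 0.00116), and Ebi3, a subunit of the Treg cytokine interleukin-35, from 13.6 ± 1.97 to 6.24 ± 0.95 CPM (-1.11, edgeR adjusted p = 0.00601). These 3 calls held in all 6 fits that left out 1 library and with the GC trend removed, and with both together except for Ebi3 without Srebp2WT replicate 1 (edgeR adjusted p = 0.0623). The summed B cell and myeloid markers given above were also lower in Srebp2cKO. Those sums came mostly from Cd74 and Cybb. Cd79a, Itgam and Fcgr3, at few counts, were lowest in a Srebp2WT library and highest in a Srebp2cKO library, which gives no group difference. The part of these markers in the lower receptors and targets was not tested. Icam1, an adhesion protein, fell too (-0.45, edgeR adjusted p = 0.0331), as did Tnfrsf9, which is in this list as well. Icam1 was no longer called with the GC trend removed (0.0700), or without Srebp2WT replicates 1 or 3 or Srebp2cKO replicates 7 or 8 (edgeR adjusted p of 0.058 to 0.146). Il2ra, the interleukin-2 receptor alpha chain CD25, went the other way, from 691 ± 11.3 to 920 ± 22.1 CPM (0.41, edgeR adjusted p = 0.0101), and was lost without Srebp2WT replicate 3 (edgeR adjusted p = 0.072). Il2ra was also called with the GC trend removed (0.29, edgeR adjusted p = 0.0363), but in 1 of the 6 fits that left out a library as well (0.0310 to 0.119). Myc, a growth regulator (0.35, edgeR adjusted p = 0.0386), and Bcl2a1b, a survival gene (-0.48, 0.0303), were called with the GC trend removed and not otherwise. By comparison, the 95% intervals of the 10 members all lay between -0.89 and 0.50 on the log2 scale.

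Of 22 immediate early genes tested (Atf3 was not), 0 were called by edgeR in either direction and 0 by limma-voom, 3 by DESeq2 and 5 had an unadjusted p under 0.05 (29.1% of all tested genes), with a median log2 fold change of 0.09. That median was -0.22 without Srebp2cKO replicate 8, -0.02 without Srebp2WT replicate 1 and 0.18 with the GC trend removed. Jund (-0.37, edgeR adjusted p = 0.0553, and -0.01 with the GC trend removed), Klf6 (0.45, 0.0702) and Egr2 (-0.36, 0.0727) had the smallest p-values.

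**Figure D4:**
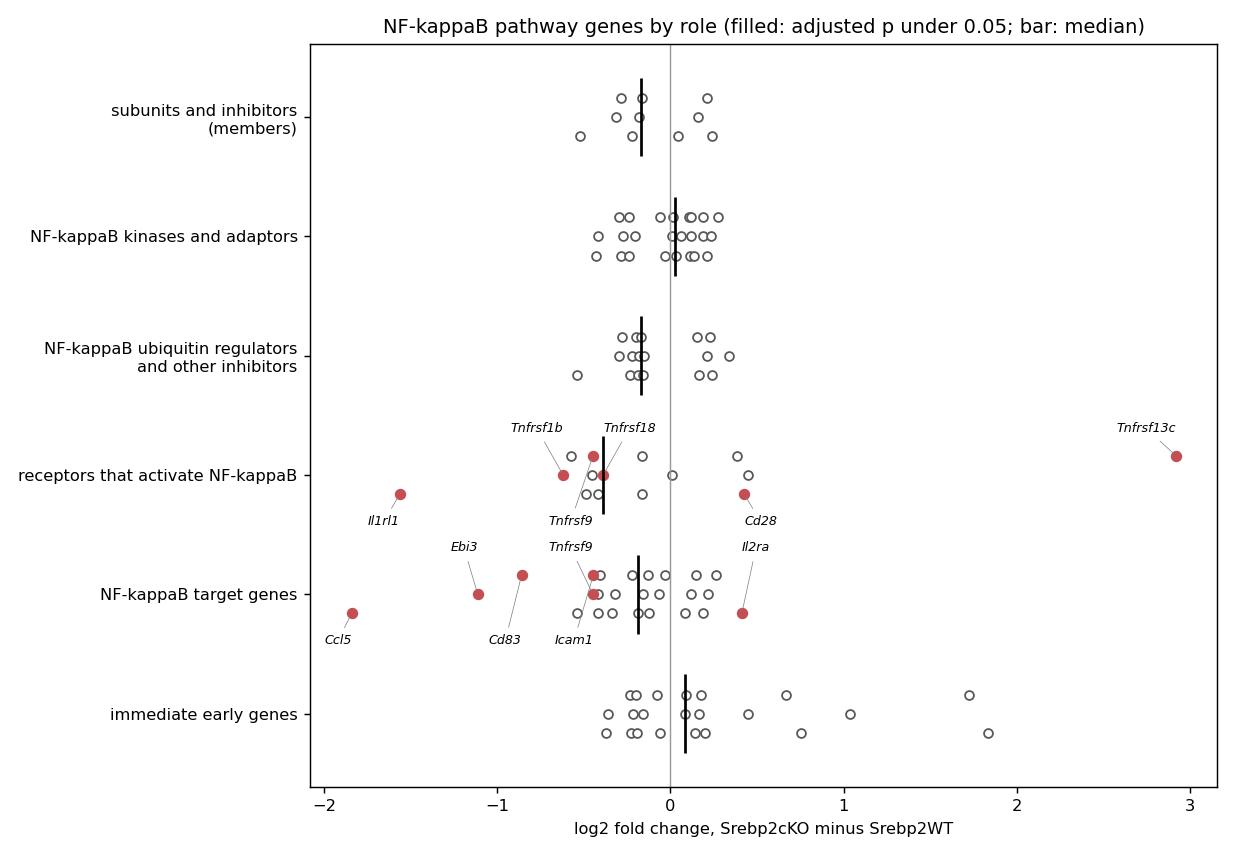
Log2 fold change (x axis, Srebp2cKO minus Srebp2WT) of the 10 members and of the tested genes in 5 lists of NF-kappaB pathway genes by role, 1 point a gene, with the vertical spread for legibility only. Filled points passed an edgeR adjusted p of 0.05 and are named, and bars are medians; the filled points lie in the receptor and target lists only.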

How the data were processed

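The deposited data were a single table of raw counts, genes by symbol in lines and the 6 libraries in columns. Per the labels' protocols, RNA was extracted with a Qiagen kit and libraries were made with a KAPA kit that depletes ribosomal RNA. The submitters' processing notes name HISAT2 2.2.1, Cell Ranger and mm10. The sources used here do not state the counting tool, its annotation or its strand setting, which leaves counts of overlapping genes uncertain. There were 0 columns of other samples.

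From these counts, filterByExpr kept 11932 genes, which were scaled by TMM and tested with the quasi-likelihood test of edgeR 4.0.16 in R 4.3.3 on all 6 libraries, with Benjamini-Hochberg adjustment over all tested genes. The code was tested on simulated counts. Pairs of libraries within a genotype differed by more than counting error (chi-square divided by its degrees of freedom, 6.98 to 36.9), so none was treated as a repeat of another, which does not show that they are independent. Alternatives were scaling by RLE, by upper quartile or by total counts alone, and the tests of DESeq2 1.42.0 and of limma-voom (limma 3.58.1). Others were robust dispersion, other filters, a false discovery rate of 0.1, leaving out each library, and ratios of raw counts without length. The last was removal from each library of a trend on transcript GC content. That trend was fitted to log2 CPM by loess with a span of 0.3 and used as an offset. GC content, known for 96.04% of tested genes, lengths and gene positions came from GENCODE M21 (GRCm38). Removal of the trend together with leaving out a library, the ratios with the trend removed and the order of levels by exon length were chosen after seeing the data.

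The members, the lists and the tests were chosen with earlier results of these data known. The text names all members, and from each list the called genes (at most 6 with the smallest p), filled up to 3 by smallest p where fewer were called. Map3k14, Il18r1, Myc, Bcl2a1b, Fos and Jun fall outside that rule and were chosen after their values were seen. The level of 1 cell type marker is not reported here.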

Additional observations from a re-analysis of the deposited data

How the results depend on the processing

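No paired analysis was possible because the genotypes share no replicate number (1, 3 and 5 against 6, 7 and 8). Every alternative named in the processing summary was run, and where a value moved the cause was not tested, except that a false discovery rate of 0.1 is looser by construction. Of members, DESeq2 called 1 higher and 2 lower, removal of the GC trend 1 and 1, a false discovery rate of 0.1 1 and 3, and the fit with no filter 0 and 1. Removal of the GC trend reversed Rel (-0.0053), Rela (0.033) and Nfkbid (0.016). Map3k14 turned to -0.0097 with upper-quartile scaling and -0.021 with total counts, which shifted the median of all genes by -0.03. Over the 12 fits that left out 1 library, with or without the GC trend, log2 fold changes ran from -0.33 to 0.031 for Nfkb2, -0.053 to 0.21 for Rel, -0.29 to 0.057 for Rela, -0.01 to 0.16 for Nfkbia, -0.29 to 0.078 for Nfkbid, -0.038 to 0.32 for Tnfaip3, -0.48 to 0.14 for Jund and -0.049 to 0.28 for Map3k14.

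Over the same fits, 0 to 2 members were called lower, 29 to 700 genes in all higher and 135 to 787 lower. Without the Srebp2WT libraries 1, 3 and 5 in turn, edgeR called 167, 184 and 1082 genes, and without the Srebp2cKO libraries 6, 7 and 8, 1487, 298 and 439, against 789 with all 6. Kinases and adaptors gave 0 to 3 lower (medians -0.040 to 0.060), ubiquitin regulators 0 to 3 higher and 0 to 3 lower (-0.23 to 0.0060), receptors 1 to 2 higher and 0 to 5 lower (-0.42 to -0.17), targets 0 to 1 higher and 3 to 7 lower (-0.27 to -0.050), and immediate early genes 0 to 1 higher and 0 to 2 lower (-0.22 to 0.30).

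Genes called higher numbered 184 with total counts, 613 with DESeq2, 473 with no filter and 861 at a false discovery rate of 0.1, where 1032 were lower. DESeq2 called 1 kinase lower, 1 ubiquitin regulator higher and 2 lower, 8 targets lower, and 1 immediate early gene higher and 2 lower. With no filter these were 1 kinase lower, 1 ubiquitin regulator lower, 8 targets lower, and 1 immediate early gene higher and 1 lower. With total counts 1 immediate early gene was lower. At a false discovery rate of 0.1, 1 kinase was higher and 2 lower, 1 ubiquitin regulator higher and 3 lower, 2 targets higher and 8 lower, and 1 immediate early gene higher and 2 lower. With the GC trend removed, 1 kinase, 1 receptor and 2 targets were higher. The median of the kinases was 0.0014 with upper-quartile scaling, -0.010 with total counts and -0.034 with the GC trend removed, where those of the ubiquitin regulators and receptors were -0.011 and -0.25. Ratios with the GC trend removed had log2 differences of 0.31 for Nfkbia, 0.016 for Nfkbie, 0.19 for Nfkbid, -0.037 for Rel to Rela and 0.27 for Nfkb2 to Nfkb1. The members had at least 28.3 CPM in every library.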
